A study of Mus musculus with 9 samples.

Results

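The data described here are the 3 dermal papilla arrays of a mouse hair follicle series, taken on postnatal days 43, 56 and 69 (P43, P56 and P69) and labelled early, middle and late telogen, the resting phase of the hair cycle. They were chosen by their sample titles and are 3 of 9 arrays in all; the other 6 hold hair germ and bulge epithelium of the same days and served only to judge how much epithelial RNA was carried into the papilla samples. All mice were CD1 females of the genotype Lef1RFP/K14H2BGFP, weaned at day 21 and kept as virgins. Papilla cells came from collagenase-treated back skin, and were sorted as red and not green and, per the titles, negative for CD45, CD117, CD34 and itga7. Hair germ cells were green, CD34 negative and high in P-cadherin, and bulge cells were green, CD34 positive and low in P-cadherin. The red reporter is under Lef1 control, so Lef1 is itself a gene of the sort gate, and the green histone reporter is under keratin 14 control. Each array was made from 20 ng of RNA through 2 rounds of amplification. The number of mice behind an array, and whether the 3 populations of a day share mice, are not stated in the labels.

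There is 1 array per day, so no difference below has a replicate check and none was tested. Day cannot be told apart from the mice, the sort, the amplification and the array of that day. Levels are MAS5 signals, the linear brightness value that the Affymetrix software gives a probe set, and they are not compared between genes. Differences are on the log2(signal + 16) scale, which understates the change of dim genes. In bulk RNA, fewer cells of a kind and less RNA per cell cannot be told apart.

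The dermal papilla is the cluster of mesenchymal cells at the base of the follicle. It sends secreted signals, among them FGFs, WNT modulators and BMP inhibitors, to the hair germ and bulge stem cells above it, and the balance between BMP signals that keep stem cells at rest and WNT, FGF and TGF-beta signals that start regrowth is known to shift during telogen. The 3 days were sampled along that resting phase, and the comparisons ask which papilla genes moved in the early step (P56 minus P43), which moved in the late step (P69 minus P56), and which went one way or turned back.

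Of the label's 3 marker genes, Fgf7 and Lef1 fitted the papilla on every day and Sostdc1 did so on the last day alone. Fgf7, an FGF made by mesenchyme and received by epithelium, had signals of 234 at P43, 584 at P56 and 934 at P69 in the papilla, which was 1208%, 1850% and 2365% of the higher epithelial array on P43, P56 and P69. Lef1, a transcription factor that partners beta-catenin, had 52.3 at P43, 96.5 at P56 and 448 at P69, and neither epithelial population exceeded 26.3. Sostdc1, a secreted BMP and WNT antagonist, had 249 at P43, 665 at P56 and 2630.3 at P69 in the papilla. It was lower there than in hair germ and bulge on P43 and P56, at 10.1% and 29.7% of the higher epithelial array, and close to bulge on P69, at 109%. Pdgfra, a receptor of dermal mesenchyme, had 1439 at P43, 695 at P56 and 1349.9 at P69, against 26.5 or less in each epithelial array. Cd34, for a surface protein that per the titles papilla cells lacked in the sort and bulge cells carried, had 24.6 at P43, 17.05 at P56 and 35.6 at P69 in the papilla, against 3098 or more in bulge. Ptprc, Kit and Itga7 encode CD45, CD117 and integrin alpha 7, which papilla cells also had to lack, and stayed at or under 7.01, 17.02 and 27.1 there.

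The keratinocyte markers were low in the papilla relative to epithelium on every day. Their summed signal over the 18 genes on the array was 2011 at P43, 707 at P56 and 714 at P69 in the papilla, against 71885, 59139 and 93540.5 in hair germ and 50664, 55259.8 and 55525 in bulge on the same days. Krt14 had 5.26 at P43, 16.1 at P56 and 39.03 at P69 in the papilla and Krt15 had 264 at P43, 3.52 at P56 and 0.692 at P69, against 8234, 9577 and 7975 for Krt15 in bulge. The median marker stood at 1.94%, 0.515% and 0.405% of the higher epithelial array on P43, P56 and P69, while the sum stood at 3.97%, 1.28% and 1.29% of bulge. The highest marker was Itga6, at 18.05%, 17.08% and 12.6% of the higher epithelial array. A carry-over of the size of that median could supply the whole difference of 5 of 232 genes lower in the early step. It could do so for 4 of 214 lower over the whole interval, and for none of the genes higher in any comparison. These counts set no upper limit, since some markers stood above the median, such as Trp63 at 6.79% on P43. By this rule even the early fall of Krt15, itself a keratinocyte marker, was not among the 5.

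**Figure D1:**
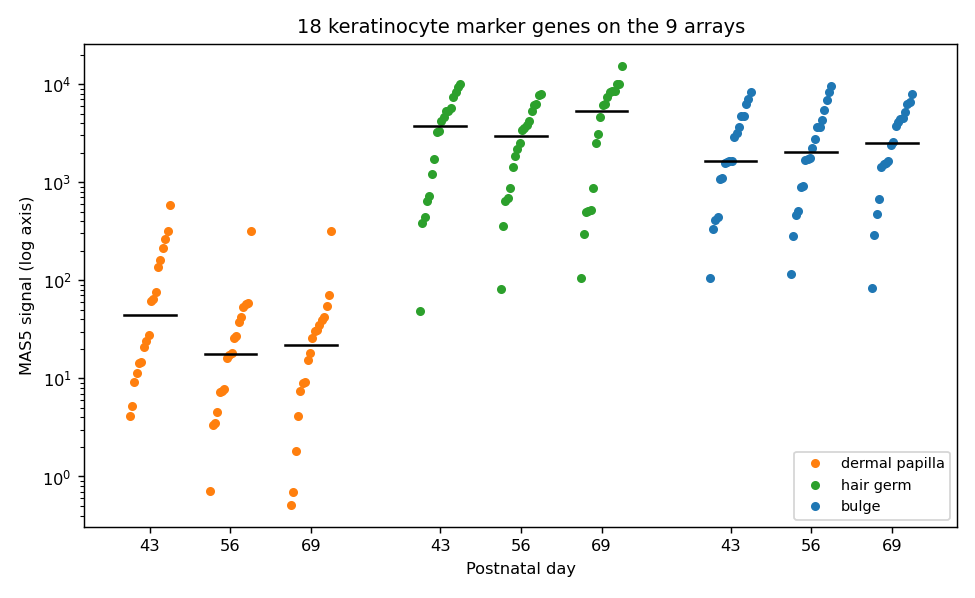
MAS5 signal (log axis) of 18 keratinocyte marker genes on each of the 9 arrays, with 1 point per gene sorted by signal and a bar at the median. In dermal papilla the medians were 44.6, 17.8 and 21.98 on P43, P56 and P69, and in both epithelial populations they were 1638 or more on every day.

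Markers of other skin cells moved too. The leukocyte sum over 18 genes was 247 at P43, 476 at P56 and 815 at P69; Ptprc, which encodes the CD45 of the sort gate, was at or under 7.01 on the 3 days, and Laptm5 alone had 19.3 at P43, 238 at P56 and 522 at P69. Other probe sets of Laptm5 did not follow this one: a second had 33.9, 4.30 and 56.2 and another 42.2, 90.1 and 58.7 on P43, P56 and P69. The endothelial sum over 14 genes was 782, 1547 and 1121 on those days, with Pecam1 at or under 10.4. All 6 endothelial members that passed the level filter were highest at P56. Their median early difference was 0.93 and their median late difference -0.56, and 2 were counted higher early and 1 lower late. Cldn5, Vwf and Egfl7 passed the filter through P56 alone, so their highest day is partly fixed by the filter. Among the dimmer members that did not pass, Tek and Prox1 were also highest at P56. Pecam1, Cdh5, Kdr, Emcn and Lyve1 were highest at P69, and Tie1 at P43. Plvap, of the endothelial diaphragm, had 426 at P43, 882 at P56 and 604 at P69, Cldn5, a tight junction protein, had 24.5 at P43, 75.6 at P56 and 21.3 at P69, and Vwf, von Willebrand factor, had 26.4 at P43, 63.3 at P56 and 36.7 at P69. Esam had 44.96 at P43, 71.01 at P56 and 42.01 at P69 and Ramp2 had 187 at P43, 314 at P56 and 247 at P69. The adipocyte sum over 6 genes was 257, 471 and 1036, nearly all of it Fabp4, with Adipoq at or under 5.62. Mast cell and erythroid lists had no member above the array median on any day. The dermal fibroblast sum was 21871 at P43, 17451 at P56 and 17026 at P69, and these genes are also expressed by papilla cells. The part of such cells in the results below was not tested.

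Array quality moved with day as well. The signal of the 3′ probe set over that of the 5′ probe set for actin was 13.5 at P43, 4.32 at P56 and 3.12 at P69 in the papilla, and for GAPDH 6.62, 4.13 and 3.77. The P43 array therefore stood apart, and every early and whole-interval difference rests on it, whereas the late step does not use it. The median signal of all probe sets was 41.4 at P43, 43.8 at P56 and 48.3 at P69.

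A change was counted where 2 days were 2-fold or more apart on that scale and the brighter of the 2 arrays exceeded its own median signal. Of 7462 genes measured, 408 were higher at P56 than at P43 (5.47%) and 232 were lower (3.11%). In the late step 254 were higher at P69 than at P56 (3.4%) and 124 were lower (1.66%). Over the whole interval 544 were higher at P69 than at P43 (7.29%) and 214 were lower (2.87%). The excess of higher over lower genes depended on scaling: higher genes were 63.8%, 67.2% and 71.8% of those counted in the early step, the late step and the whole interval as deposited, 58%, 54.4% and 58.3% after quantile normalization, and 48.2%, 57.3% and 52% with each array centred on its median. Median centring moved the median of all genes by -0.10, -0.07 and -0.17 in these 3 comparisons, from 0.05, 0.02 and 0.07 as deposited. Leaving out genes brighter in epithelium took the count of genes lower in the early step to 151, and of genes higher and lower in the late step to 171 and 83.

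By shape, 418 genes (5.6%) were higher at each later day, called a monotonic rise, and 158 (2.12%) were lower at each later day, a monotonic fall, where the whole-interval difference was counted. Within the rises, 220 reached 2-fold only over the whole interval, 111 did so in the early step, 69 in the late step and 18 in both steps. Within the falls these counts were 106, 33, 18 and 1. A transient peak, at least 2-fold higher at P56 than at both other days, was found in 38 genes (0.509%), and a transient trough in 40 (0.536%). In the remaining counted genes 1 step was followed or preceded by a smaller step the other way: 241 early rises and 158 early falls with a smaller return, and 127 late rises and 67 late falls after a smaller opposite step. Over all 7462 genes P56 was the middle value in 2780, the highest in 2415 and the lowest in 2267. The steps share the P56 array, so an error in that array would move a gene in opposite directions in the 2 steps and add to peaks and troughs.

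**Figure D2:**
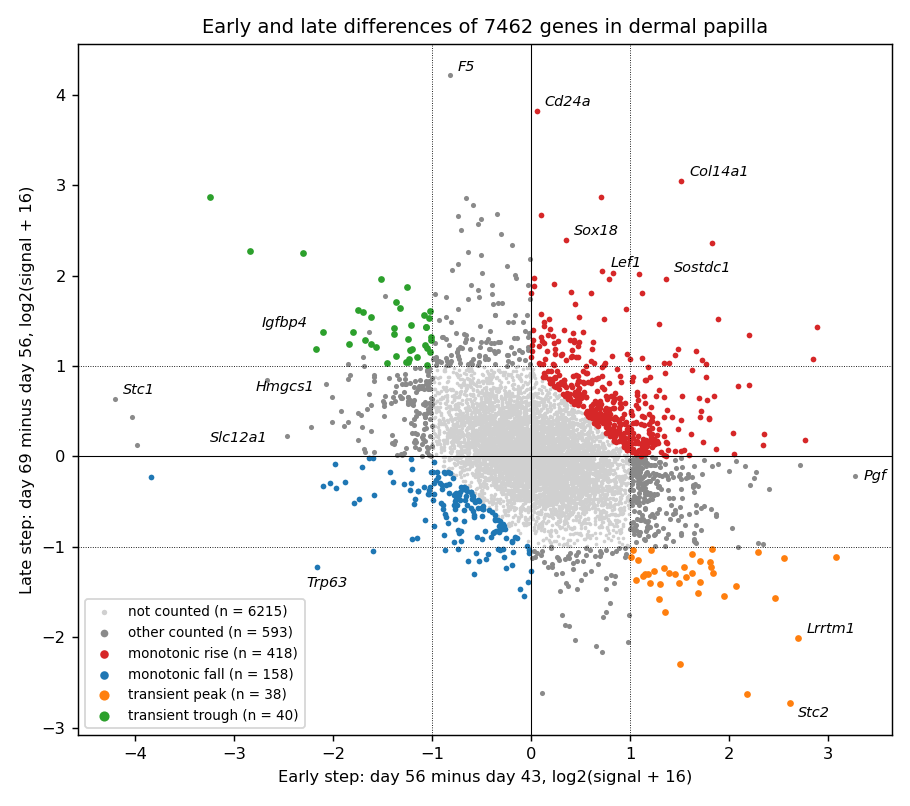
Early difference (P56 minus P43, x axis) against late difference (P69 minus P56, y axis) on the log2(signal + 16) scale for 7462 genes in dermal papilla, coloured by time class, with dotted lines at 2-fold. Both axes contain the P56 array, with opposite sign, so no relation between them is read from the plot; Sostdc1 and Col14a1 passed 2-fold upward in both steps, Trp63 passed 2-fold downward in both, and Stc2 lies at the lower right as a peak.

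Papilla identity genes were steady or higher toward P69, and none was counted as lower in any comparison. Of 30 measured members, 5 were higher in the early step, 13 in the late step and 17 over the whole interval. The list's median difference was 0.11 in the early step and 0.63 in the late step, beside 0.05 and 0.02 for all genes, and 25 of the 30 were highest at P69, beside 35.4% of all genes.

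Sostdc1 was the identity gene that passed 2-fold in both steps, by 1.36 and then by 1.96. Its second probe set gave 113 at P43, 582 at P56 and 2685 at P69. Sox18, a SOX transcription factor of the papilla, had 133 at P43, 174 at P56 and 982 at P69, a late difference of 2.39. Sox2, a SOX factor found in papillae of some hair types, had 224 at P43, 167 at P56 and 618 at P69, with a late difference of 1.79 and no counted early one. Lef1 had a late difference of 2.05, and as the driver of the red reporter it is not independent of the sort.

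Further members, named here after their values were seen, had the same late shape. Corin, a protease of the papilla that affects coat pigment, had 355 at P43, 380.3 at P56 and 1162 at P69. Alpl, alkaline phosphatase, the histochemical stain for papillae, had 55.6 at P43, 53.7 at P56 and 189.5 at P69. Vcan, the proteoglycan versican, had 1789 at P43, 1147 at P56 and 3879.5 at P69. Prom1 moved early instead, with 117 at P43, 355 at P56 and 444 at P69. The 13 members counted nowhere differed by -0.37 to 0.65 between P69 and P43. Among them were Bmp4, the BMP ligand, with 4470.3 at P43, 4124 at P56 and 4679 at P69; Crabp1, a retinoic acid binding protein, with 9705 at P43, 8050.5 at P56 and 7657 at P69; and Notum, a WNT-inactivating enzyme, with 5899 at P43, 4842 at P56 and 4639 at P69.

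**Figure D3:**
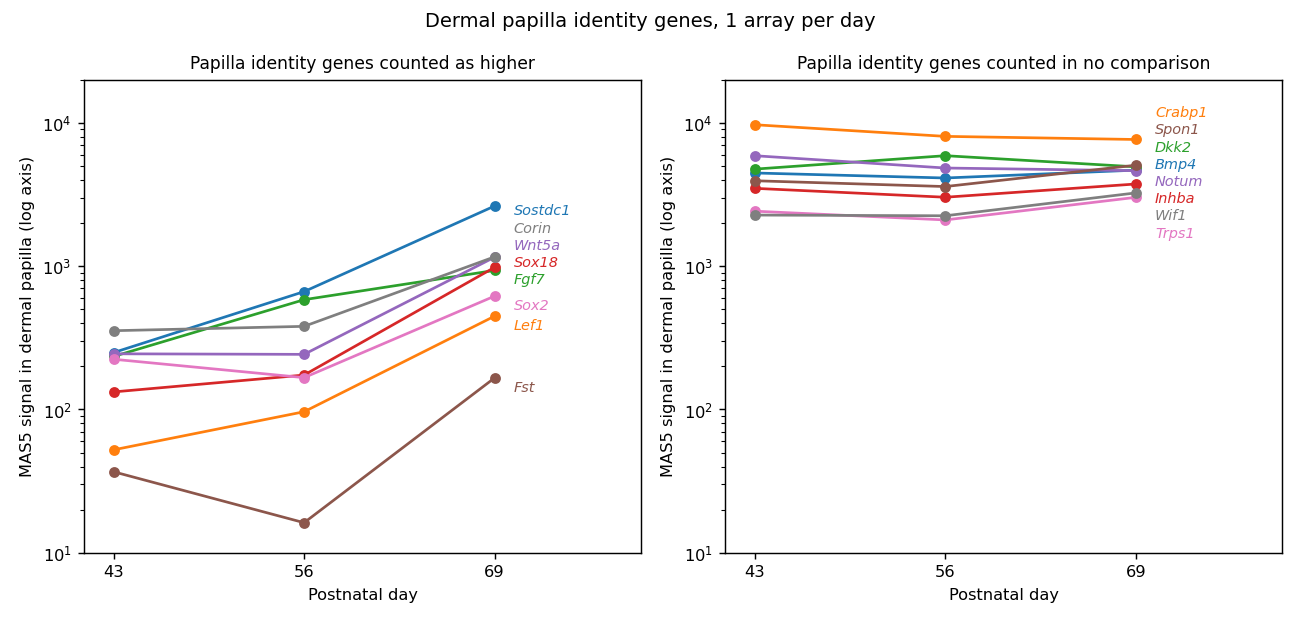
MAS5 signal in dermal papilla (log axis) on P43, P56 and P69 for 8 identity genes counted as higher (left) and 8 counted in no comparison (right), 1 array per day. The left group shows its steepest segment after P56 except for Fgf7, and the right group stays between 2102 and 9705.

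Among WNT ligands and R-spondins, secreted proteins that start or amplify WNT signalling, 8 of 18 on the array passed the level filter. Of these 8, 4 were higher and 0 lower at P69 than at P43, beside 7.29% and 2.87% of all genes. Their median difference over that interval was 0.95. A gene can pass the filter through its highest day alone, and without it the list's median was far smaller, as given under processing. Wnt5a, a ligand of the beta-catenin-independent branch, had 245 at P43, 242 at P56 and 1156 at P69; the change lay wholly in the late step, 2.18, and a second probe set gave 134, 161 and 341 on P43, P56 and P69. Rspo1 had 303 at P43, 414 at P56 and 1013 at P69 and was counted late. Rspo2 had 365 at P43, 789 at P56 and 1151 at P69 and Ndp, the norrin ligand of frizzled 4, had 91.6 at P43, 237 at P56 and 275 at P69, and both were counted early. The R-spondins, which stabilise WNT receptors at the cell surface, were at or under 17.3 in both epithelial populations on each day.

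Secreted WNT antagonists included 4 of 10 genes higher in the late step and 0 lower, beside 3.4% and 1.66% of all genes. Counting differences of any size, 5 of the 10 were higher and 5 lower in that step, with a median of 0.24. Under quantile normalization and median centring 3 passed 2-fold in place of 4. Sfrp1 and Sfrp2, decoy receptors that bind WNT proteins, had 113 at P43, 136 at P56 and 331 at P69 and 73.2 at P43, 133 at P56 and 289 at P69. The other probe sets of Sfrp1 were dim and higher at P69 than at P56 by 0.36 to 0.86. Igfbp4, placed on this list because it binds frizzled and LRP6 besides IGFs, was a trough: 4591 at P43, 1060.1 at P56 and 2773 at P69, with an early difference of -2.10 and a late one of 1.37. All 4 of its other probe sets had the same shape, with early differences of -1.61 to -2.97 and late ones of 1.47 to 2.21. The bright antagonists Dkk2 with 4757 at P43, 5902 at P56 and 4935 at P69 and Wif1 with 2273 at P43, 2248 at P56 and 3246 at P69 were not counted.

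WNT response genes were mixed, with 3 of 13 higher in the late step and 2 lower in the early step. Nkd1, a feedback inhibitor of WNT signalling, had 46.1 at P43, 66.7 at P56 and 171 at P69 and was counted in the late step. Tnfrsf19, a receptor induced by WNT signalling, had 135 at P43, 182 at P56 and 466 at P69, while its second probe set had a late difference of -0.01. Axin2, the feedback gene most used as a WNT readout, had 196 at P43, 123 at P56 and 244 at P69 and was not counted.

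Several BMP inhibitors were higher at P69 than at P56, while Bmp4 was not counted. Of 11 BMP antagonists and inhibitors, 3 were higher in the late step and 0 lower, with a median of 0.81 beside 0.02 for all genes. Fst, follistatin, which binds activins and BMPs, had 36.8 at P43, 16.2 at P56 and 166 at P69. It passed the level filter through P69 alone and was brighter in bulge, with 718, 642 and 983 on P43, P56 and P69. Smad6, an intracellular inhibitor of BMP signalling, had 169 at P43, 80.8 at P56 and 260.3 at P69. Bambi, a decoy receptor, had 341 at P43, 506 at P56 and 972 at P69 and was counted over the whole interval.

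The BMP ligands had no common direction. Bmp6 had 43.7 at P43, 45.1 at P56 and 209.7 at P69, a late difference of 1.88. Bmp2, which with BMP4 has been tied to the refractory part of telogen, had 606 at P43, 1659 at P56 and 1204 at P69 and was counted in the early step. Bmp8a was counted lower over the whole interval with 65.3 at P43, 34.7 at P56 and 17.6 at P69. Among 9 BMP response genes 4 were higher in the late step and 0 lower. Id2 and Id3, inhibitors of differentiation induced by BMPs, differed in timing: Id2 had 173 at P43, 139 at P56 and 487 at P69 and Id3 had 109.7 at P43, 513 at P56 and 493 at P69. Both were brighter in bulge, with 4050, 4080 and 4117 for Id2 and 1710, 1447 and 1723 for Id3 on those days. Hey1 stands on this list and on the Notch list.

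Among 13 FGF ligands on the array, 6 passed the level filter. Of these 6 FGF ligands, 3 were higher at P69 than at P43 and 1 lower, beside 7.29% and 2.87% of all genes. Counting differences of any size, 3 were higher and 3 lower. Fgf10, a close relative of Fgf7 with the same epithelial receptor, had 39.5 at P43, 44.5 at P56 and 107 at P69 and was counted in the late step by a small margin, 1.03. Fgf13, an FGF homologue that stays inside the cell, had 116 at P43, 223 at P56 and 264 at P69. Fgf18, an FGF made by resting bulge cells, had 549.9 at P43, 18.6 at P56 and 30.8 at P69 in the papilla, an early difference of -4.03. Bulge had 2196, 2527 and 1152 for Fgf18 on the 3 days, so the papilla stood at 25.04%, 0.736% and 2.67% of bulge, while the median keratinocyte marker stood at 1.94% on P43. Fgf7, Fgf10 and Fgf13 kept their higher direction under quantile normalization and median centring, but fewer of the 6 ligands then passed 2-fold: 1 in place of 3 over the whole interval.

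Of 33 other growth factors and cytokines on the array, 21 passed the level filter. Among these 21, 8 were higher and 1 lower at P69 than at P43, beside 7.29% and 2.87% of all genes. A gene can pass the filter through its highest day alone, as Csf1 did through P69. Mdk, midkine, a heparin-binding growth factor, had 472 at P43, 959 at P56 and 2046 at P69. Edn3, endothelin 3, a ligand that acts on melanocytes, had 35.2 at P43, 61.99 at P56 and 256 at P69, and its second probe set gave 7.30, 14.2 and 73.0 on P43, P56 and P69. Vegfd, a lymphangiogenic factor, was the member lower, with 158 at P43, 95.8 at P56 and 34.3 at P69, and its other probe sets had late differences of -1.11 and -1.30. Csf1 was counted in the late step, but its second probe set had a whole-interval difference of -0.29. Kitl, the ligand of the KIT receptor, was counted early, with 84.7 at P43, 241 at P56 and 113 at P69. Under quantile normalization and median centring the late-step split of this list was 3 higher and 4 lower in place of 4 and 2.

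The TGF-beta and activin group had falls among ligands. Inhbb, the activin beta B chain, had 1423 at P43, 291 at P56 and 369 at P69, an early difference of -2.23. Tgfb2, a TGF-beta known to be sent by the papilla to stem cells at the start of regrowth, had 531 at P43, 535 at P56 and 237 at P69; its early difference was 0.01 and its late one -1.13. A second Tgfb2 probe set gave 481, 533 and 242 on the 3 days and another had a late difference of -0.49. Ltbp1 and Ltbp4, which hold TGF-beta in the matrix, had 434 at P43, 689 at P56 and 1065 at P69 and 94.6 at P43, 373 at P56 and 244 at P69. Tgfbi, a matrix protein induced by TGF-beta, was a trough with 222 at P43, 32.3 at P56 and 213 at P69; it is bright in epithelium, where its highest array had 7488, and 2 other probe sets had the same shape.

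Hedgehog target genes were higher in the late step. Of 8 Hedgehog pathway genes, 3 were higher and 0 lower there, and 0 were higher and 1 lower in the early step. Ptch1, the receptor that pathway activity induces, had 474 at P43, 329 at P56 and 2103 at P69, a late difference of 2.62. Gli1, the transcription factor used as a readout, had 79.2 at P43, 103 at P56 and 299.7 at P69, and Hhip, a decoy receptor that is also a target, had 88.7 at P43, 102 at P56 and 283 at P69, with a second probe set at 81.2, 108 and 272. The transducers Smo and Gli2, which are not themselves such targets, had 645 at P43, 744 at P56 and 848 at P69 and 787 at P43, 643 at P56 and 750.1 at P69.

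Notch pathway genes had a late excess, 5 of 11 higher and 0 lower, with a median of 1.08 among members that passed the level filter. Without that filter the late median was 0.36. Under quantile normalization and median centring 1 member was also lower in that step. Hey2, a repressor that Notch induces, had 46.4 at P43, 25.5 at P56 and 268 at P69. Hey1, its paralogue, had 42.6 at P43, 52.4 at P56 and 156 at P69, and the ligand Dll1 had 57.4 at P43, 62.8 at P56 and 180.4 at P69. Hes1, another Notch target, moved earlier, with 106 at P43, 369.7 at P56 and 183 at P69. The receptor Notch1 had 437 at P43, 319 at P56 and 692 at P69.

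Transcription factors of the papilla list behaved in 2 ways. In the early step 0 of 20 were higher and 4 lower, and in the late step 6 were higher and 0 lower. Twist1, a mesenchymal factor, had 2336 at P43, 938 at P56 and 1474 at P69, and Zic1, a zinc finger factor, had 2285 at P43, 1005 at P56 and 1139.6 at P69; both stayed below their P43 level. Ebf1 had 1379 at P43, 610.3 at P56 and 1328 at P69 and Tbx5 had 50.6 at P43, 16.3 at P56 and 48.98 at P69, both troughs. Prrx1 and Tbx15, markers of dermal mesenchyme, were counted nowhere, with 2308 at P43, 2008 at P56 and 2073 at P69 and 316 at P43, 359 at P56 and 366 at P69.

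Next come large differences among genes whose papilla signal, on its highest day, was above hair germ and bulge of that day; on the other days they can be dimmer than epithelium. In the late step, F5, coagulation factor V, had 66.2 at P43, 30.6 at P56 and 847 at P69, a difference of 4.21, and its second probe set had 35.6, 43.8 and 540. Cd24a, a surface glycoprotein, had 234 at P43, 245 at P56 and 3665 at P69, with 2 other probe sets moving by 4.14 and 4.30; on P43 and P56 it was dimmer in papilla than in bulge, which had 2858 and 2684. Col14a1, a fibril-associated collagen, passed 2-fold in both steps with 38.5 at P43, 139.6 at P56 and 1272 at P69. Prss12, a secreted serine protease, had 133 at P43, 144 at P56 and 998 at P69. Adamts15, a metalloprotease, had 28.4 at P43, 19.1 at P56 and 209 at P69, and Cyp2g1, a cytochrome P450, had 7.64 at P43, 22.6 at P56 and 265 at P69. Of 7 retinoic acid genes 1 was higher and 1 lower in that step, the higher being Aldh1a3, a synthesis enzyme, with 22.7 at P43, 15.4 at P56 and 156 at P69.

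In the early step the highest difference was Pgf, placental growth factor of the VEGF family, with 48.99 at P43, 612 at P56 and 527 at P69. Cyp2f2 followed with 14.4 at P43, 240.0 at P56 and 103 at P69. Pvalb, a calcium-binding protein, passed 2-fold in both steps with 17.5 at P43, 232 at P56 and 653 at P69, as did the syndecan Sdc3 with 89.97 at P43, 470.1 at P56 and 1219 at P69. Gas6, a ligand of TAM receptors, had 319 at P43, 2184 at P56 and 2042 at P69. Igfbp5, an IGF-binding protein, was near the floor at P43 and was a stepwise riser, with 7.19 at P43, 66.4 at P56 and 405 at P69. Kcnj8, a potassium channel subunit also used as a pericyte marker, had 37.1 at P43, 179.8 at P56 and 544 at P69, and the pericyte marker Rgs5 had 19.3 at P43, 74.2 at P56 and 68.96 at P69. The pericyte markers had no common early direction: of 5 that passed the level filter, 2 were higher and 3 lower, with a median of -0.17. Pdgfrb went from 571 at P43 to 332 at P56, Cspg4 from 621 to 388 and Notch3 from 146 to 128. The sum over the 8 pericyte markers was 1409 at P43, 1116 at P56 and 2009 at P69. Rasd1, a small GTPase induced by glucocorticoids, had 306 at P43, 883 at P56 and 2037 at P69.

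By the same rule, with the higher array above its 75th percentile, the largest falls were early. Stc1, Padi4, Slc12a1 and Mtmr2 stayed more than 2-fold below P43 on P69, whereas Jpt1, Cdkn1c and Igfbp4 were higher again in the late step and are described with the troughs. Stc1, the glycoprotein hormone stanniocalcin 1, had 864 at P43, 31.98 at P56 and 58.7 at P69, an early difference of -4.20. Padi4, an enzyme that converts arginine to citrulline, had 264 at P43, 1.73 at P56 and 3.37 at P69. Slc12a1, a sodium, potassium and chloride cotransporter, had 3602 at P43, 641 at P56 and 752 at P69, and its second probe set gave 154, 20.1 and 28.4 on P43, P56 and P69. All 3 genes were at or under 30.01 in hair germ and bulge on every day. Mtmr2 had 373 at P43, 45.3 at P56 and 94.2 at P69, and Rpgrip1 had 1097 at P43, 354 at P56 and 259.6 at P69; both were above epithelium on P43 alone, with hair germ at 133 and 623 for Mtmr2 and 757 and 1245 for Rpgrip1 on P56 and P69. Ncam2, a neural adhesion molecule, was lower in each step, with 1484 at P43, 658 at P56 and 345 at P69. Map3k12 had 683 at P43, 173 at P56 and 139.9 at P69, against 1369 in hair germ on P69, but 1 of its 2 other probe sets was higher over the whole interval by 0.24.

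Late falls were fewer. S100a4, a calcium-binding protein of fibroblasts, had 6338 at P43, 4238 at P56 and 1717 at P69 and had 2681, 3013 and 2132 in bulge on the same days. Igfbp6 had 564 at P43, 720.0 at P56 and 187 at P69, Chst15, a chondroitin sulfate sulfotransferase, had 1042 at P43, 1359.9 at P56 and 359.9 at P69, and Hpgd, which degrades prostaglandins, had 1254 at P43, 2089.6 at P56 and 601 at P69. Odr4 had 108 at P43, 189 at P56 and 29.9 at P69, and Gpx2, a glutathione peroxidase, had 177 at P43, 319 at P56 and 93.5 at P69. The second probe sets of Chst15 and Hpgd had late differences of -1.73 and -1.87. Anxa8, which was at 5409 or more in hair germ and bulge, had 450.2 at P43, 487 at P56 and 66.3 at P69 in the papilla, or 7.71%, 6.99% and 0.732% of the higher epithelial array. The epithelial transcription factor Trp63 was the gene lower by 2-fold in both steps, with 314 at P43, 57.6 at P56 and 15.6 at P69, against 2765 or more in each epithelial array.

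Matrix genes split by kind. Of 34 proteoglycans and glycoproteins, 7 were higher and 0 lower in the early step, and 11 were higher and 1 lower over the whole interval. Dcn, the small proteoglycan decorin, had 87.7 at P43, 509 at P56 and 555 at P69, an early difference of 2.34. Mfap4, a microfibril protein, had 34.9 at P43, 331 at P56 and 378 at P69, and Sparcl1 had 35.97 at P43, 204 at P56 and 361 at P69. Fbln5, an elastic fibre protein, passed 2-fold in both steps with 122 at P43, 347 at P56 and 728 at P69. Nid1, a basement membrane linker, was late, with 565 at P43, 502 at P56 and 2072 at P69. Ecm1 was the member lower over the whole interval, with 443 at P43, 409.6 at P56 and 138 at P69.

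Collagens had a median early difference of -0.64, beside 0.05 for all genes, and 12 of 19 were highest at P43. Only 1 of 19 was counted as lower in that step and 2 as higher. Col1a1, a chain of the main dermal collagen, had 412 at P43, 167 at P56 and 305 at P69, and its second probe set had an early difference of -0.93. Col3a1 had 8803 at P43, 5649 at P56 and 5658 at P69. Against that direction stood Col14a1 and Col15a1, where Col15a1 had 135 at P43, 316 at P56 and 511 at P69. Col11a1, a fibril-forming collagen, had 33.2 at P43, 13.5 at P56 and 169.8 at P69, and its second probe set had a late difference of 2.55. The median of the collagens kept its sign under quantile normalization, -0.42, and median centring, -0.74.

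**Figure D4:**
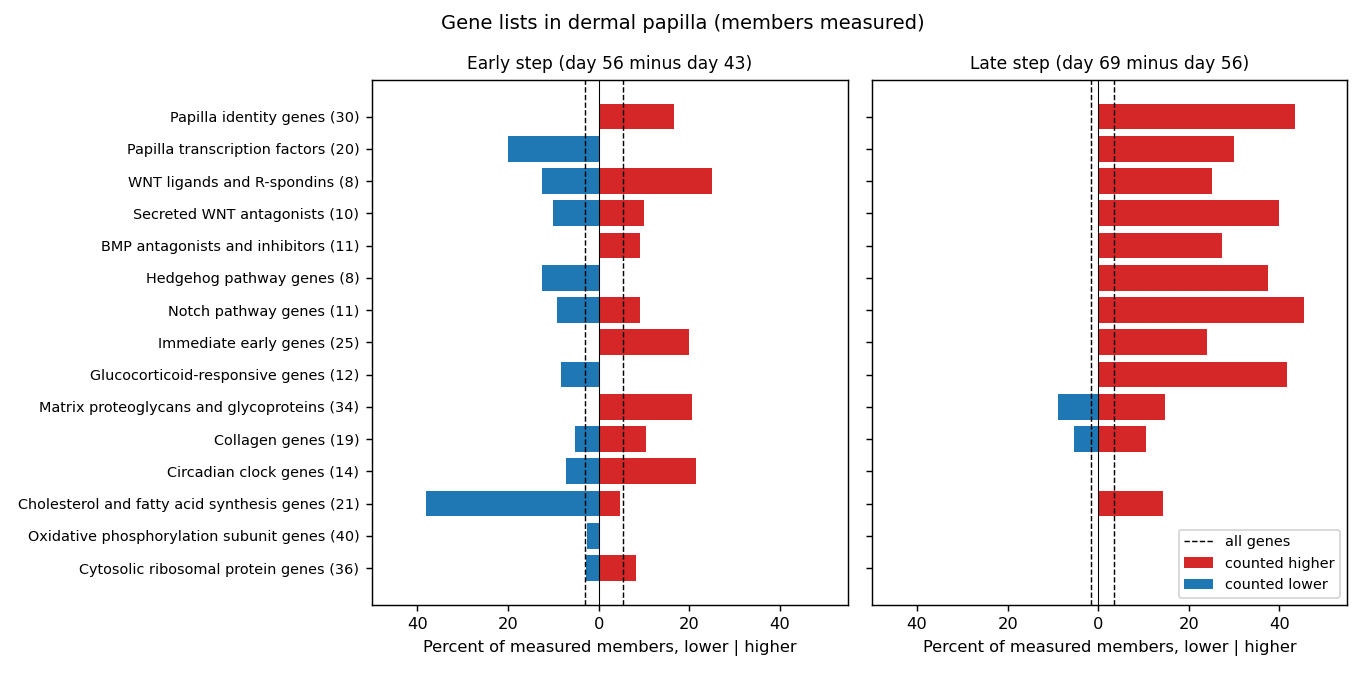
Percent of the measured members of 15 gene lists counted as lower (left of 0) or higher (right of 0) in the early and the late step in dermal papilla, with the number measured in brackets and dashed lines at the percent of all 7462 genes. Sterol and fatty acid synthesis genes stand out to the left early (8 of 21). Furthest right late are Notch (5 of 11), identity (13 of 30), glucocorticoid-responsive (5 of 12), secreted WNT antagonist (4 of 10) and Hedgehog genes (3 of 8).

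Genes of cholesterol and fatty acid synthesis formed a trough at P56. Of 21 measured, 8 were lower and 1 higher in the early step, 3 were higher and 0 lower in the late step, and 0 were higher and 1 lower at P69 than at P43. The list's medians were -0.72, 0.73 and 0.02 in these comparisons, and 18 of the 21 were lowest at P56, beside 30.4% of all genes. The early counts were 7 and 9 lower, and 1 higher, under quantile normalization and median centring.

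Hmgcs1, which makes HMG-CoA in the mevalonate pathway, had 5503 at P43, 1302 at P56 and 2277 at P69, an early difference of -2.07. Its 3 other probe sets had early differences of -0.85 to -1.54 and late ones of 0.95 to 1.41. Fdft1, squalene synthase, had 1362 at P43, 411 at P56 and 835 at P69, with a second probe set at 184, 118 and 274. Idi1, isopentenyl diphosphate isomerase, had 826 at P43, 264 at P56 and 506 at P69, with a second probe set at 681, 243 and 607. Msmo1, a sterol methyl oxidase, had 246 at P43, 113 at P56 and 376 at P69 and was a full trough. Scd1, a fatty acid desaturase, was a full trough too with 1444 at P43, 682 at P56 and 1873 at P69, but its second probe set was dim and gave 75.4, 81.0 and 203. Ebp, a sterol isomerase, was the member higher early, with 159.8 at P43, 366 at P56 and 229 at P69. Both Hmgcs1 and Fdft1 were also at 484 or more in each hair germ and bulge array.

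Promoters of such genes are known to be read by SREBP factors together with the CCAAT-binding factor NF-Y, so the promoter windows of Hmgcs1 and Idi1 are shown. Each runs from 250 bases before to 50 after the RefSeq gene start, on build GRCm38.p6, and is written 5′ to 3′ along the gene. Capitals mark the CCAAT box, searched as CCAAT on both strands, so that ATTGG is a match on the opposite strand, and in Hmgcs1 also the sterol element searched as TCACNCCAC on both strands. The windows are chr13:119690101-119690400 on the plus strand for Hmgcs1 and chr13:8885356-8885655 on the plus strand for Idi1.
Hmgcs1: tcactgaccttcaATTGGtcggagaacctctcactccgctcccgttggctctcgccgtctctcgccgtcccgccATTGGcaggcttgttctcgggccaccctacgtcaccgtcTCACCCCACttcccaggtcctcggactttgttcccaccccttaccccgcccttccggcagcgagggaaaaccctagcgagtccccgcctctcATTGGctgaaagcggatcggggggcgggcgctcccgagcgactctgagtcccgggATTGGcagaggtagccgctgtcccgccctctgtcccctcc
Idi1: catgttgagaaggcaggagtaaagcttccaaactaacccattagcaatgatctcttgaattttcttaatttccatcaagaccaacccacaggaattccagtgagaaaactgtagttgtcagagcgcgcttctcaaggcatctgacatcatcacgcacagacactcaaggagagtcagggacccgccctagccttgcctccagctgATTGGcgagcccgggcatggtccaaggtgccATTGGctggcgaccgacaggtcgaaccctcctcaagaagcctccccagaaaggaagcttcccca

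The Hmgcs1 window held 4 CCAAT boxes and 1 sterol element, and the Idi1 window 2 CCAAT boxes. Of the list's 21 measured genes 16 had a window in the table, and 15 of these held CCAAT, Elovl6 being the one that did not. CCAAT was found in the windows of 41.1% of all 27025 genes there. TCACNCCAC was found in 1.44% of all genes and in 1 of the 16. The motifs were chosen after the values were seen, and the matches describe letters and not binding.

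**Figure D5:**
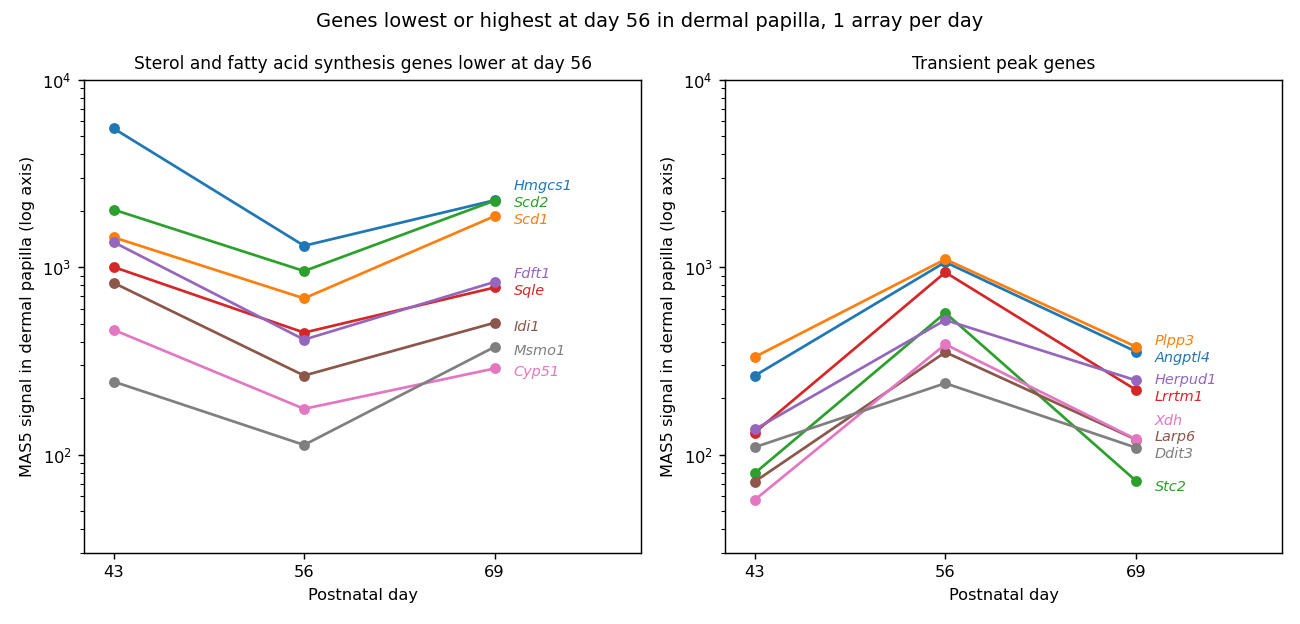
MAS5 signal in dermal papilla (log axis) on P43, P56 and P69, 1 array per day, for 8 sterol and fatty acid synthesis genes counted as lower at P56 than at P43 (left) and 8 transient peak genes (right). Every line on the left has its lowest point at P56 and every line on the right its highest.

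Troughs outside that pathway included Cdkn1c, the cell cycle inhibitor p57, with 753 at P43, 154 at P56 and 371 at P69, the chemokine receptor Cxcr4 with 409 at P43, 123 at P56 and 387 at P69 and the water channel Aqp5 with 239.9 at P43, 57.7 at P56 and 175 at P69. Meg3, an imprinted noncoding RNA, had 657 at P43, 220.3 at P56 and 908 at P69, and its 3 other probe sets were all lowest at P56. Fabp5, a fatty acid binding protein, had 1229.6 at P43, 601 at P56 and 1527 at P69, and Riok2, a ribosome assembly kinase, had 208 at P43, 50.8 at P56 and 188 at P69. The second probe sets of Fabp5 and Riok2 were also lowest at P56, but their early differences were only -0.33 and -0.44. That of Fabp5 gave 55.2, 40.6 and 232 on P43, P56 and P69, a whole-interval difference of 1.80. The 2 deepest apparent troughs, Jpt1 and Rpl41, were not shared by all their probe sets. Jpt1 had 1455 at P43, 189 at P56 and 978 at P69, while a second probe set was highest at P56 with 295, 468 and 373. Rpl41 had 5536 at P43, 569.8 at P56 and 4263 at P69, while a second probe set gave 656, 672 and 906; ribosomal protein genes have many near-identical copies.

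Among bright genes, with their higher array above its 75th percentile, transient peaks were led by Stc2, the second stanniocalcin, with 79.7 at P43, 571 at P56 and 72.6 at P69. Its second probe set gave 35.3, 104 and 44.8, with the same shape and a smaller size. Lrrtm1, a synaptic adhesion protein, had 131 at P43, 939 at P56 and 222 at P69, and a second probe set gave 48.6, 516 and 154. Angptl4, a secreted inhibitor of lipoprotein lipase induced by fasting, had 264 at P43, 1065 at P56 and 355 at P69, while Lpl, that lipase, was higher in each step with 51.7 at P43, 199 at P56 and 467 at P69. Xdh, xanthine dehydrogenase, had 57.5 at P43, 388 at P56 and 121 at P69, Larp6, which binds collagen messages, had 71.9 at P43, 352 at P56 and 121 at P69, and Plpp3, a lipid phosphatase, had 332 at P43, 1103 at P56 and 377 at P69. Rbm14, an RNA-binding protein, had 475 at P43, 1189.6 at P56 and 389 at P69, and its 4 other probe sets were all higher early and lower late.

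Of 19 stress genes of the endoplasmic reticulum and heat shock genes, 8 were highest at P56, beside 32.4% of all genes. On this list 2 were counted as transient peaks, beside 0.509% of all genes. Ddit3, a transcription factor of the stress response, had 109.7 at P43, 241 at P56 and 109 at P69, and Herpud1, part of the protein degradation machinery there, had 136 at P43, 523 at P56 and 249 at P69. Of 19 heat shock and unfolded protein genes 2 were higher and 0 lower early, and 0 were higher and 4 lower late. The chaperone Hspa5 had 5426 at P43, 4376 at P56 and 4242 at P69 and was not counted. Hsph1 was among the late falls with 606 at P43, 756 at P56 and 299 at P69, but its second probe set was higher in that step by 0.10.

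Immediate early genes, which cells switch on within minutes of a stimulus or of tissue dissociation, were higher later. Of 25 measured, 5 were higher and 0 lower in the early step, 6 and 0 in the late step, and 10 and 0 at P69 against P43. With median centring the early split was 5 higher and 2 lower, and after quantile normalization 5 and 1. Fos and Egr1, the classical dissociation genes, had 8103 at P43, 5349 at P56 and 6345 at P69 and 7423 at P43, 5069.8 at P56 and 6485 at P69 and were counted nowhere.

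Atf3, a stress-induced transcription factor, passed 2-fold in both steps with 113 at P43, 298 at P56 and 848 at P69. Nr4a1, an orphan nuclear receptor, had 339.7 at P43, 599 at P56 and 2381 at P69, and Junb, an AP-1 subunit, had 279 at P43, 653 at P56 and 1315 at P69. Myc had 13.5 at P43, 74.8 at P56 and 161 at P69. These genes were bright in epithelium too: Atf3 in the papilla stood at 2.33%, 5.81% and 13.0% of the higher epithelial array on P43, P56 and P69, and Nr4a1 at 12.9%, 13.5% and 49.0%. The summed keratinocyte marker signal was 2011, 707 and 714 on those days, and its part was not tested. The time from skin to sorted cells on each day is not in the labels.

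Many promoters of this class carry the core of the cyclic AMP response element, read by CREB and ATF factors, and those of Nr4a1 and Junb are shown as members counted higher at P69 than at P43. The windows are chr15:101266596-101266895 on the plus strand and chr8:84978699-84978998 on the minus strand, in the same build and layout, and capitals mark TGACG on either strand, CGTCA being the opposite one.
Nr4a1: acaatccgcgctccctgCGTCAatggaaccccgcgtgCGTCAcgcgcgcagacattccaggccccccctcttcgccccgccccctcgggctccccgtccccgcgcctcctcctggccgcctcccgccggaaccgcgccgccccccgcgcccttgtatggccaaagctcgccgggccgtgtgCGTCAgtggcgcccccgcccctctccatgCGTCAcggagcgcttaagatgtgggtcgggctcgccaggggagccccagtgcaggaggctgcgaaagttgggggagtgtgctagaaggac
Junb: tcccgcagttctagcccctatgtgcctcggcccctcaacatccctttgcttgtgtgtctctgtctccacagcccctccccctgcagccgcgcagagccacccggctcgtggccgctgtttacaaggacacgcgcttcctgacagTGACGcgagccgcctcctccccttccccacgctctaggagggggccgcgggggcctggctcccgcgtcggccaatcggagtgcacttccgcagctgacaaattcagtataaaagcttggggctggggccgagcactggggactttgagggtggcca

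The Nr4a1 window held 4 matches and the Junb window 1. Of the 22 measured immediate early genes with a window, 13 held TGACG, beside 23.0% of all genes in the table. Both sets of genes were chosen with their values known, and no site was assayed.

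Metallothioneins and some hormone-responsive genes were higher late. Mt1 and Mt2, metal-binding proteins induced by metals and glucocorticoids, had 69.7 at P43, 116 at P56 and 302 at P69 and 107 at P43, 129 at P56 and 528 at P69, against 1058 or more for both in every hair germ and bulge array. Gpx3, a secreted glutathione peroxidase with little signal in epithelium, had 100.3 at P43, 165 at P56 and 355 at P69. Of 12 glucocorticoid-responsive genes 5 were higher and 0 lower in the late step, which includes these 3; with median centring the late count was 3 higher. Lcn2, lipocalin 2, was lower over the whole interval with 400.4 at P43, 169 at P56 and 118 at P69. Fkbp5 and Tsc22d3, the targets most often used as readouts, were not counted, with 207 at P43, 399.8 at P56 and 378 at P69 and 228 at P43, 199 at P56 and 359.7 at P69.

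Of the 2 steps, clock genes passed 2-fold in the early one alone. The list's median difference was 0.26 early and 0.35 late, beside 0.05 and 0.02 for all genes. At P69, 9 of 14 were highest, beside 35.4% of all genes. Of 14, 3 were higher and 1 lower in the early step, and none was counted in the late step. Dbp, a clock output factor, had 44.6 at P43, 226 at P56 and 201 at P69, the repressor Nr1d2 had 193 at P43, 541 at P56 and 475 at P69, Nfil3 had 156 at P43, 384 at P56 and 413 at P69 and the repressor Cry1 had 294 at P43, 111 at P56 and 154 at P69. The hour of collection is not given in the labels.

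Housekeeping lists are given beside all genes, of which 5.47% were higher and 3.11% lower early, and 3.4% and 1.66% late. Of the lists below, only oxidative phosphorylation had few counted genes in the early step. Of 40 oxidative phosphorylation subunit genes, 0 were higher and 1 lower in the early step, and 0 of 40 were counted in the late step; the 1 was Cycs, cytochrome c, with 3561 at P43, 1501 at P56 and 2303 at P69. Of 36 cytosolic ribosomal protein genes 3 were higher and 1 lower early, and 0 were counted late. Of 27 DNA replication genes 14 passed the level filter, and 2 were higher and 0 lower early, with 0 counted late. They were Pcna, a replication clamp, with 281 at P43, 673 at P56 and 791 at P69, and Prim1, a primase subunit, with 74.9 at P43, 176 at P56 and 162 at P69. Cdc20, a mitotic activator, had 29.7 at P43, 32.5 at P56 and 82.5 at P69 against 604 to 2875 in hair germ. The D cyclin Ccnd3 had 407 at P43, 575 at P56 and 880.2 at P69 and was counted over the whole interval.

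Where a counted gene had further kept probe sets, most moved the same way. In the early step 246 of 301 such probe sets (81.7%) had the same sign as the brightest one, in the late step 140 of 166 (84.3%) and over the whole interval 227 of 270 (84.1%). Their median difference was smaller, 0.62 against 1.20 in the early step and 0.78 against 1.27 in the late step, with falls turned to the same sign. Probe sets of a gene share the array and its RNA, so their agreement is no replicate of the day.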

How the data were processed

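RNA of sorted dermal papilla, hair germ and bulge cells was hybridised to 1 array per population and day, 9 in all. The values are intensity values on a linear scale, deposited by the authors as MAS5 probe set signals made with GCOS, per the submitters' processing notes; the scaling target and versions are not given in the sources used here. Detection calls were not used. Array signals carry no count depth, so precision is limited by how few arrays there are.

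Of 22690 probe sets, 64 controls were used only for quality. Signals were turned into log2(signal + 16) without rescaling the arrays. Probe sets brighter than the array median on at least 1 of the 3 papilla arrays were retained, 12445 in all. The annotation given with the series named 1 gene for 20393 probe sets, several for 691 and none for 1555, and 20364 symbols were matched to the RefSeq gene table. A gene was read from its brightest kept probe set, giving 7462 genes of 12393 named on the array. A difference was counted at 2-fold with the higher array above its own median. No test was made, since there is 1 array per day.

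Genes named are the label's 3 markers; for each of the 3 comparisons the 8 largest differences per direction among genes brighter in papilla on the gene's highest papilla day, and the 4 largest among genes brighter in epithelium, with the higher array above its 75th percentile; the 8 leading peaks, troughs and stepwise genes per direction; up to 4 members of each list; and counted ligands and antagonists. Others were named after their values were seen. The members and lists were chosen with earlier results of these data known. The carry-over percent is the papilla signal over the higher epithelial signal of the same day, over keratinocyte markers with at least 500 in epithelium. Steps were checked on simulated arrays with planted changes. Promoter windows are from RefSeq, build GRCm38.p6. Analyses used Python 3.11.15, pandas 2.3.3, numpy 2.4.6 and matplotlib 3.10.9.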

Additional observations from a re-analysis of the deposited data

How the results depend on the processing

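Counts depended mostly on how dim genes and size were treated. With a pseudocount of 64, 143 genes were higher and 113 lower in the early step, 118 and 38 in the late step and 237 and 98 over the whole interval, with 185 monotonic rises, 70 monotonic falls, 13 peaks and 15 troughs. With a pseudocount of 1, 188 genes were lower in the late step, with 73 peaks and 71 troughs. At 3-fold these counts were 85 and 57, 64 and 17, and 145 and 46, with 114 rises, 35 falls, 3 peaks, 5 troughs, 7 identity genes higher late and 3 sterol and fatty acid synthesis genes lower early. With median centring 341 genes were lower over the whole interval, with 266 rises and 264 falls. Without genes brighter in epithelium, an alternative chosen after seeing the data, 151 were lower early and 140 over the whole interval. Quantile normalization, no filter, a filter over all 9 arrays, the mean of probe sets and leaving out _s_at and _x_at probe sets each kept all 14 counts within 1.5 times.

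Of 338 counted differences of named genes, 221 stayed counted under every alternative that gave a value other than 3-fold, and 158 under 3-fold too. Leaving out _s_at and _x_at probe sets reversed 5: Jpt1 early (0.64) and late (-0.32), Rpl41 early (0.034), and Sptlc1 late (0.018) and over the whole interval (0.18). Without the filter the median of WNT ligands and R-spondins over the whole interval was 0.10 and that of Notch genes in the late step 0.36. No paired analysis was possible because each group holds 1 array. The 3 arrays share no replicates, and depth cannot be judged from array signals.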

Other observations

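Axon guidance genes, which also pattern skin nerves and vessels, were mixed in direction. Of 18 semaphorin, ephrin and other guidance genes, 7 were counted in some comparison, beside 1247 of all 7462 genes. At P56 against P43, 1 was higher and 3 were lower, beside 5.47% and 3.11% of all genes. At P69 against P56, 0 were higher and 1 was lower, beside 3.4% and 1.66% of all genes. Sema6d, a membrane semaphorin, had 140.3 at P43, 32.9 at P56 and 34.7 at P69, and the ephrin Efnb1 had 335 at P43, 132 at P56 and 208 at P69, with 2 other probe sets at early differences of -0.81 and -1.16. Efnb2, a ligand of EPH receptors marking arterial and niche cells, was counted higher over the whole interval with 26.7 at P43, 59.7 at P56 and 94.2 at P69, and Sema3a, a secreted repellent, was counted lower late with 49.8 at P43, 72.4 at P56 and 21.3 at P69. With either rescaling the early count of lower members was 4.

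Matrix proteases and their inhibitors were more often higher, with 5 of 15 higher and 1 lower at P69 than at P43. Adamts5, which cleaves versican and aggrecan, had 140.5 at P43, 556 at P56 and 591 at P69, with a second probe set at 48.3, 153 and 158 on P43, P56 and P69. Timp3, an inhibitor of such proteases, had 109 at P43, 274 at P56 and 365 at P69, with a second probe set at 85.2, 186 and 305. Cpe, a peptide-processing carboxypeptidase, passed 2-fold in both steps with 146 at P43, 335 at P56 and 728 at P69, below its level in hair germ of 1943 to 2721. Mmp3 was the member lower, with 56.7 at P43, 7.31 at P56 and 7.05 at P69. Of 21 interferon response genes on the array, 12 passed the level filter, and Bst2 did so through P69 alone. In the early step 2 of the 12 were higher and 0 lower, beside 5.47% and 3.11% of all genes. The 2 were Irf1 with 148 at P43, 338 at P56 and 439 at P69 and Ifi35 with 81.00 at P43, 260.4 at P56 and 136 at P69. In the late step 0 were higher and 1 lower, beside 3.4% and 1.66% of all genes. It was Oasl2, with 42.7 at P43, 70.4 at P56 and 26.8 at P69. The myelin gene Mbp had 25.8 at P43, 189 at P56 and 89.9 at P69, and the 4 others that passed the level filter were also higher at P56 than at P43. A probe set that did not pass it had 21.02, 16.8 and 4.05 on P43, P56 and P69, and the summed signal of the 6 Schwann cell markers, which includes that probe set, was 1831 at P43, 1924 at P56 and 2268 at P69.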
